A study of Mus musculus with 31 samples.

Results

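Immunoglobulin variable segments are the germline exons from which the variable region of an antibody chain is assembled: Ighv segments for the heavy chain, Igkv segments for the kappa light chain and Iglv segments for the lambda light chain. A developing B cell joins 1 heavy and usually 1 light segment to the diversity and joining segments, and all its descendants, plasma cells included, transcribe that same rearranged pair with a constant region exon such as Ighm or Igkc. Hematopoietic stem cells carry these loci in germline order. Members were chosen from the measured values, as every gene whose symbol starts with Ighv, Igkv or Iglv and whose level reached 2 CPM (counts scaled to a common library total) in at least 1 of 31 RNA-seq libraries. This gave 182 members, 87 Ighv, 92 Igkv and 3 Iglv, of 348 annotated segments and of 45706 genes counted.

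The libraries came from bone marrow of 10-week-old C57BL/6 mice that received 1 mg of β-glucan, a glucose polymer of fungal cell walls, or PBS alone in the peritoneum. Libraries of long-term hematopoietic stem cells (HSC) from day 7 number 3 for β-glucan and 4 for PBS, and those from day 28 number 4 and 4. Multipotent progenitors (MPP), the next stage, were taken at day 28 only (4 and 4). The last 8 libraries are HSC of mice (4 and 4) given 150 mg/kg of the cytotoxic drug 5-fluorouracil (5-FU) at day 7 after β-glucan or PBS and sampled 14 days after it. The labels name no transgene or deletion in any group, and they do not say whether mice were pooled or whether replicates are separate mice, so that p-values measure the spread between these libraries. Library totals ran from 19331663 to 39485556 counts.

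The annotation bears out the symbols, since all 348 segments lie at the positions of GENCODE M21 on mouse build mm10, the heavy segments on chromosome 12 between 113572927 and 116010093, the kappa segments on chromosome 6 between 67555497 and 70704177, and the lambda segments on chromosome 16. Of the members, 175 are annotated as functional and 7 as pseudogenes, whereas 130 of the 348 segments are pseudogenes. The sorted cells carried transcripts of several cell types. The 11 HSC markers had a mean of at least 1 CPM in 9 to 11 cases per group, and their sum was 1586 to 2278 CPM at day 7 and 381 to 709 CPM in the day 28 and 5-FU groups. This sum did not set HSC and MPP apart at day 28. It was 385 to 695 CPM in HSC and 381 to 491 CPM in MPP of PBS mice. In β-glucan mice it was 401 to 447 CPM in HSC and 382 to 466 CPM in MPP. The sum of 8 neutrophil genes was 48840 to 188000 CPM, that of 8 erythroid genes 18010 to 185400 CPM, that of 14 mature B cell genes 483 to 1381 CPM and that of 9 plasma cell genes 144 to 797 CPM. The part of these other transcripts in the results on the segments was not tested.

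The end of a variable segment holds the codon of a conserved cysteine, just before the stretch that becomes the third complementarity-determining region. A script found an in-frame cysteine codon in all 175 functional members, a median of 26 bases from the 3′ end and within 40 bases of it in 167. The last 120 bases are shown, from GENCODE M21 on mm10, for 3 segments that differed between treatments at day 28 or after 5-FU and for the kappa segment that reached the highest level. Capitals mark the last in-frame cysteine codon. Igkv4-91 lies on the minus strand at chr6:68768555-68769103, Igkv17-127 on the plus strand at chr6:67861153-67861659, Igkv14-126 on the plus strand at chr6:67896172-67896642 and Ighv1-49 on the minus strand at chr12:115055223-115055656.
Igkv4-91: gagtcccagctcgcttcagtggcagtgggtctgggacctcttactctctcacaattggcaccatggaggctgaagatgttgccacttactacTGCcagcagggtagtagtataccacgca
Igkv17-127: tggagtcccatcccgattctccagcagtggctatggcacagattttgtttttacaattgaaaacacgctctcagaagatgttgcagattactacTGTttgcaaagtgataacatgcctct
Igkv14-126: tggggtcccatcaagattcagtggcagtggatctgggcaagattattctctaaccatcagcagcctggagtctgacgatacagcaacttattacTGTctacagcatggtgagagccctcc
Ighv1-49: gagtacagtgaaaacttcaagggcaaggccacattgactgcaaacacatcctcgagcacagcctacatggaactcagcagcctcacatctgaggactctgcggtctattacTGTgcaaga

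Segments of 1 family are close copies, and gene counts of short reads can split or drop reads between them. Ighv11-2 (minus strand, chr12:114048241-114048812) and Ighv11-1 (minus strand, chr12:113981879-113982341) differ at 2 of their last 120 bases, and Iglv1 (minus strand, chr16:19085017-19085500) and Iglv2 (minus strand, chr16:19260401-19260859) at 4. Capitals mark the bases that differ within each pair.
Ighv11-2: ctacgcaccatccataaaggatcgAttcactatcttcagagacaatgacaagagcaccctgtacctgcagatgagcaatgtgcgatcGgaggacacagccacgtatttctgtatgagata
Ighv11-1: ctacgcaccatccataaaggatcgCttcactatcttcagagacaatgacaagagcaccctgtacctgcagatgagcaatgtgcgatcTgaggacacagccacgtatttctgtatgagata
Iglv1: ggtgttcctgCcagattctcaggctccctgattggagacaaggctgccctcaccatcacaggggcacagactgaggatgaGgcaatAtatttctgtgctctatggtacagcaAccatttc
Iglv2: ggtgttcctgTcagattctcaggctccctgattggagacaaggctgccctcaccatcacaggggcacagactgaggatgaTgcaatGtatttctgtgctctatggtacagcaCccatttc
Over all members, a median of 23.4% of the runs of 50 bases in a segment's transcript occur in another gene. This share was 0 in 28 members, above 20% in 106 and above 50% in 27. It was 5.18% for Igkv4-91, 44.0% for Igkv17-127 and 0 for Ighv1-49 and Igkv14-126.

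The summed level of the members set the cell types apart more than the treatments. Day 7 HSC had a sum of 415, 454 and 366 CPM after β-glucan, against 522, 515, 631 and 808 CPM after PBS. The β-glucan libraries lay below all PBS libraries, with 412 ± 44.4 CPM against 619 ± 137 CPM (SD, n = 3 and 4). In bulk RNA, fewer cells of a type and less RNA per cell cannot be told apart. Day 28 HSC had a sum of 886, 1117, 899 and 1064 CPM after β-glucan and 882, 1295, 823 and 996 CPM after PBS, and the groups overlapped. In MPP it was 2517, 2153, 2508 and 2047 CPM after β-glucan and 2017, 2060, 2336 and 2347 CPM after PBS, again overlapping and above every HSC library of the same day. After 5-FU it was 1108, 819, 960 and 611 CPM in β-glucan mice and 771, 1186, 631 and 931 CPM in PBS mice, which overlapped. Sums were not tested.

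**Figure D1:**
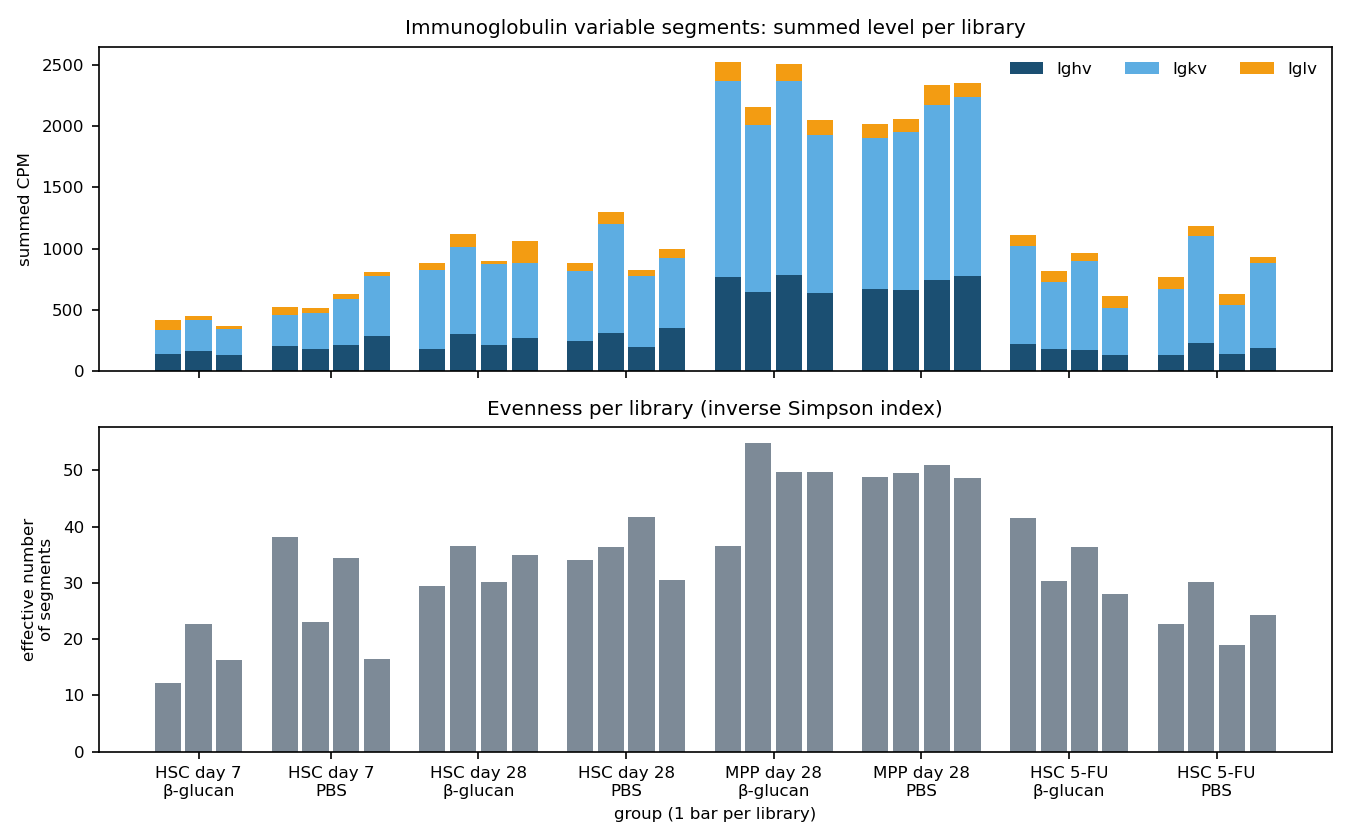
Upper panel: summed CPM of the 182 members in each library, stacked as Ighv, Igkv and Iglv. Lower panel: effective number of segments (inverse Simpson index of the shares of the sum); 1 bar is 1 library. MPP libraries reach 2017 to 2517 CPM and all HSC libraries stay at or below 1295 CPM.

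Plasma cell markers, Jchain among them, were also highest in MPP, although the treatments overlapped at day 7. Their sum was 144 to 177 CPM in β-glucan HSC and 169 to 324 CPM in PBS HSC at day 7, 288 to 360 and 301 to 358 CPM at day 28, 633 to 797 and 569 to 728 CPM in MPP, and 277 to 410 and 236 to 409 CPM after 5-FU. The sum of 14 mature B cell markers was 645 to 754 CPM in β-glucan HSC and 1218 to 1381 CPM in PBS HSC at day 7, without overlap. At day 28 it was 833 to 877 CPM in β-glucan MPP and 978 to 1030 CPM in PBS MPP, against 730 to 765 and 851 to 858 CPM in HSC. The sum of 8 pre-B markers was 456 to 525 and 558 to 717 CPM in these MPP, against 171 to 194 and 227 to 234 CPM in HSC. Both were thus higher in MPP than in HSC of the same treatment. Igkc, the kappa constant region, had 535, 532 and 456 CPM after β-glucan and 581, 632, 778 and 1058 CPM after PBS at day 7. The summed Igkv level followed it: their ratio was 0.376 to 0.514 over all 31 libraries, with a median of 0.446.

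The reads were unevenly divided over segments. The effective number of segments is the number of equally used segments that would give the same concentration, here from CPM without division by length (329 to 480 exonic bases). In day 7 HSC it was 12.2 to 22.7 after β-glucan and 16.5 to 38.1 after PBS, and in day 28 HSC 29.4 to 36.5 and 30.4 to 41.6. In MPP it was 36.5 to 54.9 after β-glucan and 48.6 to 50.9 after PBS, and after 5-FU it was 28.0 to 41.5 in β-glucan mice and 19.0 to 30.2 in PBS mice. The ranges of both treatments overlapped in every comparison. The 10 leading segments held 32.6% of the sum in 1 MPP library and 76.7% in 1 HSC library of day 7.

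Many segments were high in 1 library and near 0 in its replicates. The library with the most of a segment held a median of 15.4% of that segment's CPM over 31 libraries, against 5.63% for all 14312 genes that reached 2 CPM in any library. It held more than 20% for 55 members, or 30.2% of them, against 0.797% of all those genes. The choice by the highest library favours such genes, and near-copies were counted in a different proportion in the day 7 table, so these shares are a description. Igkv5-37, a kappa segment, had 25.2 CPM in the third β-glucan library after 5-FU and at most 0.563 CPM in each of the other 30, and that library held 90.1% of its sum. Igkv11-125 had 27.7 CPM in the second PBS library of HSC at day 28, which held 66.9%. For Igkv7-33, Igkv3-9 and Igkv4-54 the top library held 65.4, 63.0 and 61.1%. Only Iglv1 and Igkv1-135 reached 2 CPM in all 31 libraries, and 13 members did so in a single library.

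Just inside the rule were Ighv1-84, Ighv4-2 and Ighv8-2, with 2.13, 2.24 and 2.40 CPM in their highest library, and just outside it Ighv1-36, Ighv2-6-8 and Ighv1-62, with 1.96, 1.84 and 1.75 CPM. No count was found in any library for 34 segments.

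Replicate libraries differed far more in single segments than in the sum. The median coefficient of variation of a single segment between replicates was 86.8% after β-glucan and 65.1% after PBS in HSC at day 7, 81.3 and 75.5% at day 28, 57.4 and 49.2% in MPP, and 76.4 and 77.2% after 5-FU. For the sum of the segments it was 8.03 to 27.1% over the 8 groups, and for Igkc 6.05 to 32.6%. Over all genes at 2 CPM or more the median was 7.92 to 14.0%. Between 20.9 and 40.7% of members differed by more than 4-fold between replicates of a group on the scale of CPM + 1, against 0.363 to 0.692% of all genes. Of members at 10 CPM or more in any library of a group, all libraries of the group held it for 40 of 91 in MPP after β-glucan and 34 of 88 in MPP after PBS. In the HSC groups this was so for 2 to 5 members of 28 to 69. Over all genes the share was 90.26% in MPP after β-glucan, 92.25% in MPP after PBS and 86.27 to 90.38% in the HSC groups.

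**Figure D2:**
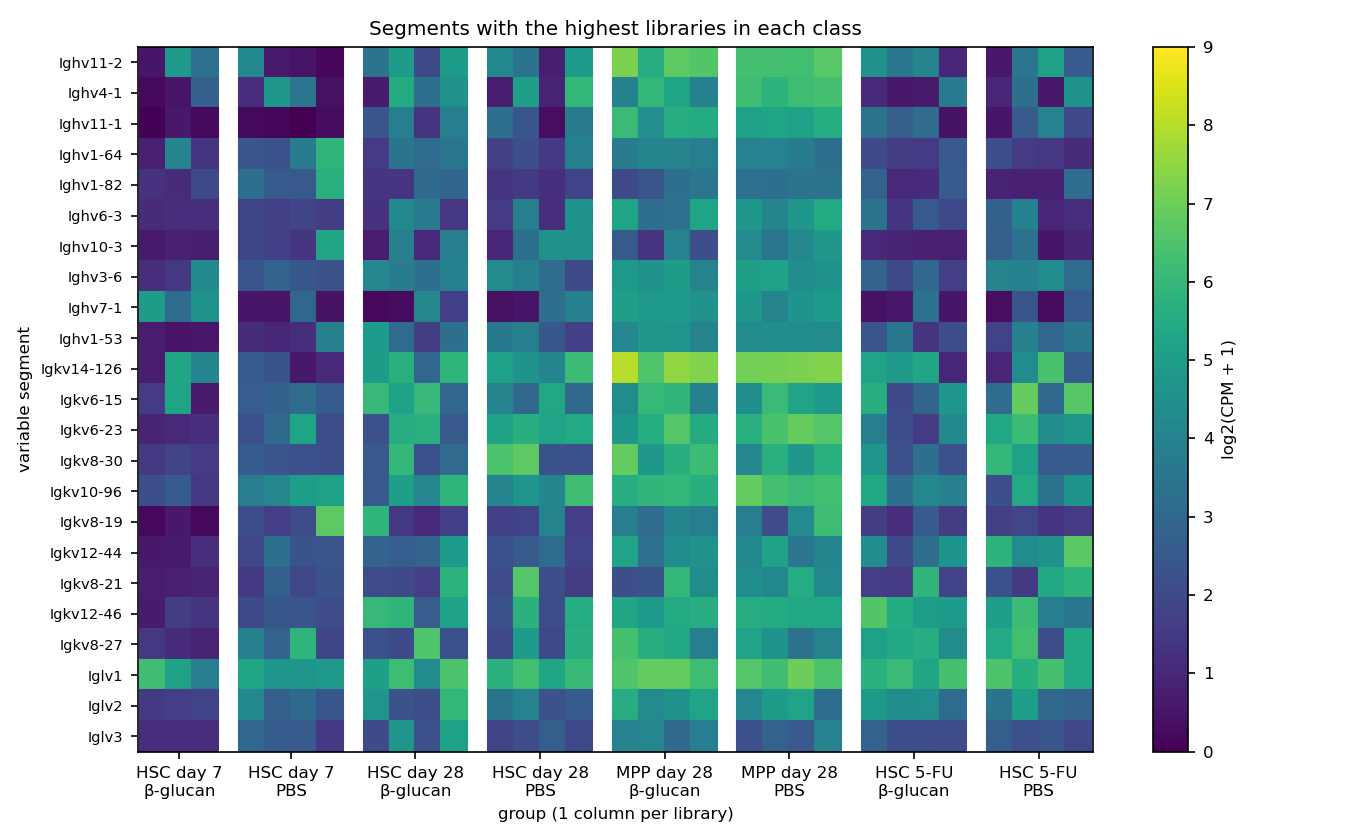
Level of 23 segments, the 10 Ighv, 10 Igkv and 3 Iglv with the highest CPM in any library, in each of 31 libraries, as log2(CPM + 1). Within HSC groups neighbouring columns differ in colour for the same segment, whereas MPP columns are more even, as for Igkv14-126 with 91.0 to 258 CPM.

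The difference between treatments was then set against that spread. For each member the difference between the means of β-glucan and PBS libraries was divided by the pooled SD within the groups, on log2(CPM + 1). The median of this ratio was 1.08 for members and 0.890 for all genes in day 7 HSC, and 0.528 and 0.796 in day 28 HSC. It was 0.606 and 0.783 in MPP, and 0.681 and 0.548 after 5-FU. The difference exceeded the SD in 54.4% of members and 45.2% of all genes at day 7, and in 26.9 and 23.95% after 5-FU, where members lay above the share of all genes. It did so in 19.2 and 39.9% in day 28 HSC and in 31.9 and 40.05% in MPP, where members lay below that share. Between cell types the ratio was 1.24 for members and 1.19 for all genes in PBS mice, and 1.15 and 1.53 in β-glucan mice. The SD itself was larger for members: its median was 0.400 to 0.863 over the 6 comparisons, against 0.115 to 0.172 for all genes.

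**Figure D3:**
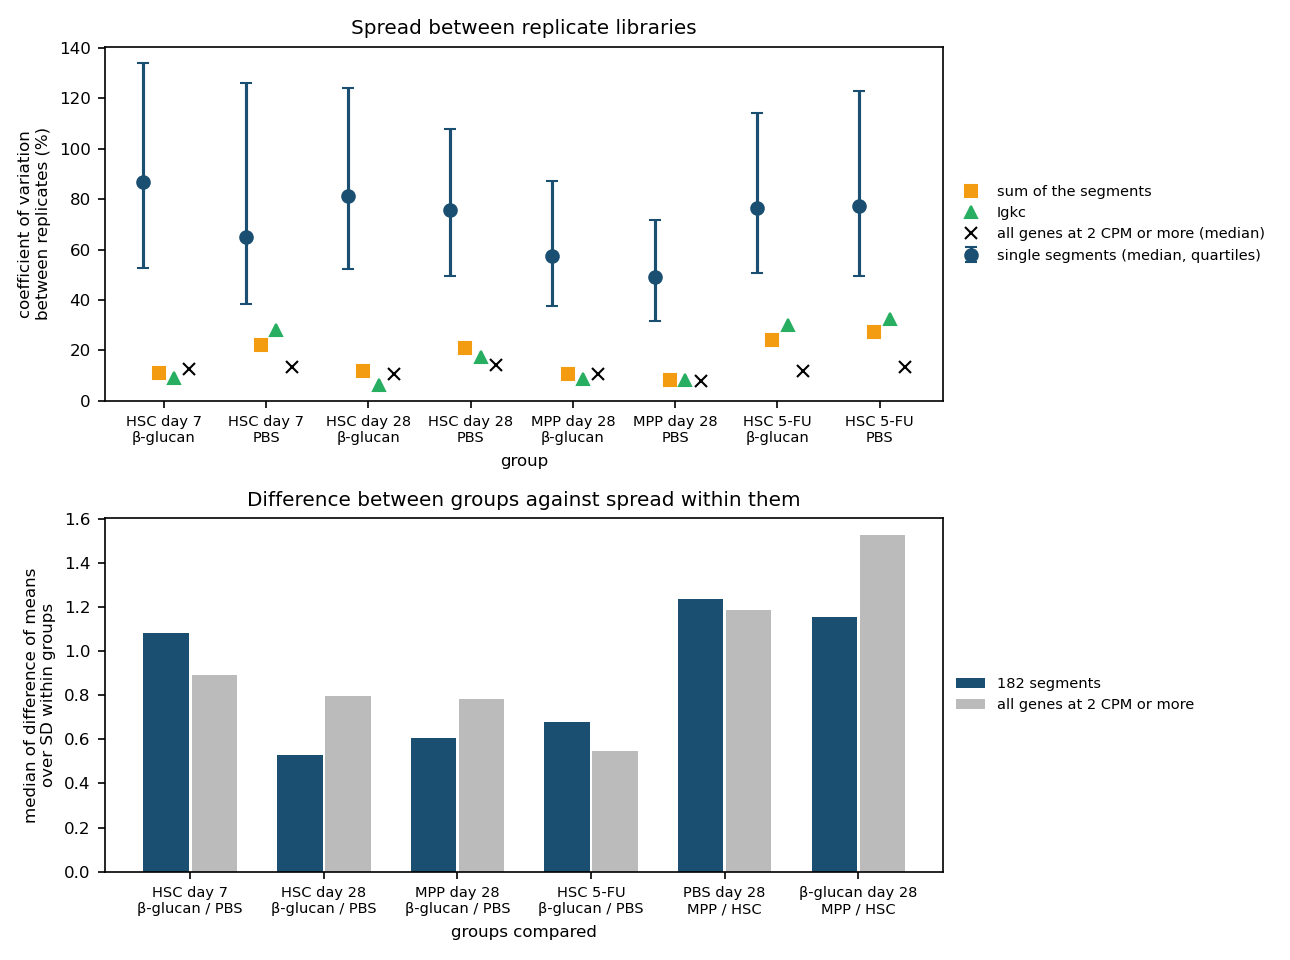
Upper panel: coefficient of variation between replicates (%) in each group, for single segments (median and quartiles), for their sum, for Igkc and for all genes at 2 CPM or more (median). Lower panel: median ratio of the difference of group means to the pooled SD within groups, for the 182 segments and for all such genes. Single segments vary by 49.2 to 86.8% at the median and their sum by 8.03 to 27.1%, and the ratio stays below 1 in HSC at day 28, in MPP and after 5-FU.

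Members made up many of the largest fold changes. The choice by the highest library favours such changes, so their numbers are a description. Of the genes tested, members were 0.793 to 1.11%, yet among genes with a fold change above 4 between β-glucan and PBS they were 47 of 99 in HSC at day 7, 22 of 29 in HSC at day 28, 13 of 25 in MPP and 30 of 38 after 5-FU. Of these members 22 of 47, 2 of 22, 5 of 13 and 1 of 30 passed a test that uses the spread between replicates. The test was edgeR's quasi-likelihood fit over all genes, with p-values adjusted by Benjamini-Hochberg across the whole table, called below 0.05. Members that passed the filter on low counts numbered 130, 151, 175 and 136 of 182 in these comparisons, so that counts below do not describe all 182.

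In HSC at day 7, segments were lower after β-glucan: 31 fell and 1 rose. Of all 16403 genes tested 6.72% were called, 3.88% lower and 2.83% higher. By class, 12 Ighv, 17 Igkv and 2 Iglv fell, with log2 fold changes between -6.69 and -1.32. Of the 31, 20 had a mean below 5 CPM after PBS and all 31 a mean below 5 CPM after β-glucan. The median of these means was 3.52 CPM after PBS and 0.608 CPM after β-glucan. Members near 0 after β-glucan could pass the filter on low counts through PBS libraries alone, which favours calls in the lower direction. The numbers by direction are therefore a description. The β-glucan and PBS libraries did not overlap for 54 tested members in the lower direction and for 1 in the higher, against 11.7 and 6.58% of all genes. The median log2 fold change was -1.47 over the members tested and -0.01 over all genes. Members that fell were 13 of the 56 tested that share at most 20% of their sequence with other genes, and 18 of the 74 that share more.

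The smallest p belonged to Ighv1-9, a segment of the large Ighv1 family, with 0.574, 0.577 and 0.795 CPM after β-glucan and 2.91, 2.59, 2.37 and 2.22 CPM after PBS. The groups did not overlap, and the fold change was -1.91 ± 0.28 (log2, SE; edgeR adjusted p = 0.00244). Igkv10-96 was next, at 3.53, 5.00 and 1.68 CPM after β-glucan against 12.7, 17.1, 30.6 and 33.6 CPM after PBS (log2 -2.72 ± 0.42, edgeR adjusted p = 0.00286). Every PBS library was above every β-glucan library. Further called segments of small p were Ighv14-2 (log2 -3.21), Igkv8-21 (-2.23), Igkv12-44 (-2.60), Igkv17-127 (-1.69), Igkv6-20 (-1.79), Igkv4-55 (-2.82), Iglv3 (-1.76), Ighv1-77 (-1.32), Igkv3-2 (-3.80) and Ighv6-6 (-2.30). Of the 12 segments of smallest p, Igkv6-20, Iglv3, Ighv1-77, Igkv3-2 and Ighv6-6 missed the threshold without the second β-glucan library, and Igkv6-20, Igkv4-55, Iglv3, Igkv3-2 and Ighv6-6 without the third, at adjusted p of 0.0543 to 0.0915. Ighv1-77 and Ighv6-6 missed it without the second PBS library as well, at 0.0532 and 0.0538. The fold change of Igkv3-2 was -2.35 without the first PBS library.

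Some calls rested on 1 library in size. Igkv8-19 had 0.132, 0.5 and 0.132 CPM after β-glucan, and 3.38, 2.09, 3.11 and 108 CPM after PBS. Its log2 fold change of -6.69 ± 1.75 (edgeR adjusted p = 0.0430) includes the fourth PBS library, which was far above the other 3. The segment that rose, Ighv7-1, had 30.0, 7.61 and 23.3 CPM after β-glucan and 0.438, 0.398, 6.92 and 0.362 CPM after PBS (log2 3.35 ± 0.84, edgeR adjusted p = 0.0357). The third PBS library, at 6.92 CPM, came close to the lowest β-glucan library. Without the second β-glucan library 14 segments were called and without the third 10, in place of 32. With members at 5 CPM or more in at least 3 libraries only, 15 were tested and 4 called.

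The lambda segments did not move together at day 7. Iglv1, the most widely detected of them, had 73.8, 35.4 and 13.1 CPM after β-glucan and 38.8, 25.8, 25.7 and 28.3 CPM after PBS, and the groups overlapped (log2 0.49 ± 0.39, edgeR adjusted p = 0.556). Iglv2 had 1.85, 2.08 and 2.43 CPM after β-glucan and 17.6, 5.23, 7.17 and 4.35 CPM after PBS, and fell (log2 -1.97 ± 0.45, edgeR adjusted p = 0.0231). Iglv3 had 1.28, 1.35 and 1.32 CPM against 6.73, 5.03, 4.84 and 1.86 CPM and fell as well (log2 -1.76 ± 0.37, edgeR adjusted p = 0.0168), although its adjusted p was 0.0599 without the second and 0.0744 without the third β-glucan library. Iglc2, a lambda constant region, had 10.6, 8.65 and 11.6 CPM after β-glucan and 50.4, 28.9, 36.6 and 27.4 CPM after PBS (log2 -1.76 ± 0.21, edgeR adjusted p = 0.000648).

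Other B lineage genes of fixed lists were lower in the same libraries. Of 16 mature B cell genes tested 12 fell and none rose, with a median log2 fold change of -1.35. Ms4a1, which encodes CD20, had 20.3, 17.6 and 23.1 CPM after β-glucan and 62.0, 63.5, 77.3 and 67.8 CPM after PBS, and the groups were far apart (log2 -1.69 ± 0.12, edgeR adjusted p = 2.27e-05). Of 14 pre-B genes 11 fell (median -0.91), among them Vpreb3 and Igll1 of the surrogate light chain group (log2 -1.39 and -0.86). Of 15 plasma cell genes 4 fell and 1 rose (median -0.33): Irf4, Mzb1, Pou2af1 and Slamf7 fell, and Fkbp11 rose by 0.53. Of 9 constant region and J chain genes Ighd and Iglc2 fell (median -0.55). Ighd, the constant region of IgD on naive B cells, had 5.56, 7.19 and 9.27 CPM after β-glucan and 30.8, 33.5, 34.5 and 30.4 CPM after PBS (log2 -2.08 ± 0.17, edgeR adjusted p = 7.3e-05). Of the 3 octamer factor genes Pou2af1 fell, and none of 7 T cell receptor constant regions was called. In the same HSC libraries the sum of 8 neutrophil genes was 75210 to 108900 CPM after β-glucan and 52500 to 59720 CPM after PBS, and that of 8 erythroid genes 18010 to 24390 and 57130 to 71700 CPM.

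At day 28 in HSC, 2 kappa segments rose and none fell, of 6 genes called among 16025 (0.0374%). Igkv4-91 had 19.1, 31.8, 22.7 and 35.3 CPM after β-glucan and 1.24, 2.45, 0.896 and 1.68 CPM after PBS. All β-glucan libraries lay far above all PBS libraries (log2 4.04 ± 0.31, edgeR adjusted p = 0.000519). Igkv17-127 had 76.6, 58.1, 29.6 and 18.0 CPM after β-glucan and 3.57, 4.52, 3.67 and 5.14 CPM after PBS, likewise without overlap (log2 3.37 ± 0.39, edgeR adjusted p = 0.0201). Its adjusted p was 0.0909, 0.0779 and 0.0823 without the first, the third or the fourth PBS library. Treatments did not overlap for 3 members in the higher and 2 in the lower direction, against 6.27 and 2.83% of all genes. The constant region, plasma cell, mature B cell, pre-B, octamer factor and T cell receptor lists held no called gene by edgeR, and their medians lay between -0.32 and 0.06. Unadjusted p was below 0.05 for 3 of 12, 8 of 16, 10 of 16, 7 of 14, 3 of 3 and 2 of 7 of their genes. The share of all genes below that level was not computed, so these counts are a description.

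In MPP at day 28, 13 segments rose and 3 fell among 175 tested, where 4.63% of 15828 genes were called, 2.72% higher and 1.91% lower. Treatments did not overlap for 9 members in the higher and 5 in the lower direction, against 11 and 2.43% of all genes. Igkv17-127 had 59.4, 67.9, 40 and 56.3 CPM after β-glucan and 26.0, 15.3, 13.9 and 16.8 CPM after PBS, without overlap (log2 1.56 ± 0.19, edgeR adjusted p = 0.0032). Ighv1-54 had 9.07, 5.43, 5.82 and 11.8 CPM after β-glucan and 1.90, 1.36, 1.73 and 3.03 CPM after PBS (log2 1.92 ± 0.26, edgeR adjusted p = 0.00455), and again all β-glucan libraries were higher. Ighv5-9-1 had 16.2, 27.9, 14.4 and 14.8 CPM after β-glucan against 0.614, 1.95, 3.53 and 3.92 CPM after PBS (log2 2.83 ± 0.39, edgeR adjusted p = 0.00459). The same segment had 12, 13.8, 7.59 and 6.20 CPM in HSC after β-glucan at day 28 and 0.532, 3.24, 0.587 and 0.908 CPM after PBS, where it was not called. Igkv3-12, Igkv3-7, Ighv1-78 and Ighv9-2 rose by log2 1.92, 2.63, 2.04 and 1.27. Their calls were lost in 1 of 16, 6 of 15, 4 of 16 and 7 of 15 alternatives, at adjusted p of up to 0.0653, 0.105, 0.111 and 0.105. For Ighv9-2 these include the fits without any 1 PBS library or the fourth β-glucan library, for Igkv3-7 without the first, the second or the fourth PBS or the third β-glucan library, and for Ighv1-78 without the second or the fourth PBS or the third β-glucan library.

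Of the Igkv4 family, the largest kappa family here, 27 members were tested in MPP, and 6 rose and 1 fell. Igkv4-71 had 22.8, 14.5, 22.9 and 19.3 CPM after β-glucan and 11.3, 7.77, 9.70 and 8.98 CPM after PBS, without overlap (log2 0.98 ± 0.13, edgeR adjusted p = 0.00455). Igkv4-72, Igkv4-59, Igkv4-79, Igkv4-73 and Igkv4-55 rose by log2 2.03, 1.22, 0.76, 0.94 and 0.74. The call of Igkv4-72 was lost without any 1 PBS library, and that of Igkv4-59 without the second or the third PBS or the third β-glucan library. These calls are uncertain as to the copy, since Igkv4-59 shares 74.3% of its 50-base runs with other genes, Igkv4-79 55.3%, Igkv4-55 53.3% and Igkv4-71 42.6%.

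The segment of this family that fell was Igkv4-91, with 13.2, 0.714, 3.49 and 1.71 CPM after β-glucan and 18.5, 20.2, 21.8 and 50.9 CPM after PBS. The groups did not overlap (log2 -2.58 ± 0.60, edgeR adjusted p = 0.0317), but the adjusted p exceeded the threshold in 6 of 8 fits that left out 1 library, at 0.0595 to 0.0919. Igkv10-96 fell to 47.6, 57.7, 62.3 and 50.3 CPM after β-glucan, against 113, 77.8, 68.4 and 76.1 CPM after PBS (log2 -0.71 ± 0.13, edgeR adjusted p = 0.0151). Igkv16-104 had 1.96, 1.43, 3.42 and 10.5 CPM against 19.8, 17.9, 14.6 and 7.75 CPM, and the groups overlapped (log2 -1.96 ± 0.47, edgeR adjusted p = 0.0357). The count of 16 was 6 to 26 when 1 library was left out: 26 without the second β-glucan library, and 10, 6, 9 and 10 without the first, the second, the third or the fourth PBS library.

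Igkv4-91 thus moved in opposite directions in the 2 cell types. The difference between the β-glucan effects, MPP minus HSC, was -6.64 ± 0.84 (log2, edgeR adjusted p = 0.0047). It was the only gene called among 16691 in that test (0.00599%), and 1 of 176 segments tested, of which 34 had an unadjusted p below 0.05. The share of all genes below that unadjusted level was not computed. With a robust dispersion estimate the adjusted p of Igkv4-91 was 0.215 and no gene was called. Over the other alternatives it ran from 8.32e-08 to 0.0264. By cell type, Igkv4-91 rose in MPP of PBS mice relative to HSC (log2 4.04 ± 0.39, edgeR adjusted p = 9.28e-05) and fell in MPP of β-glucan mice relative to HSC (log2 -2.58 ± 0.62, edgeR adjusted p = 0.0079). These comparisons share their libraries with those between treatments. At day 7 the segment had 0.0883, 0.308 and 0.177 CPM after β-glucan and 0.597, 0.747, 0.791 and 0.776 CPM after PBS. After 5-FU it had 0.635, 0.370, 1.86 and 0.977 CPM in β-glucan mice, against 0.913, 17.4, 0.788 and 27.7 CPM in PBS mice, where 2 libraries were high and 2 low.

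**Figure D4:**
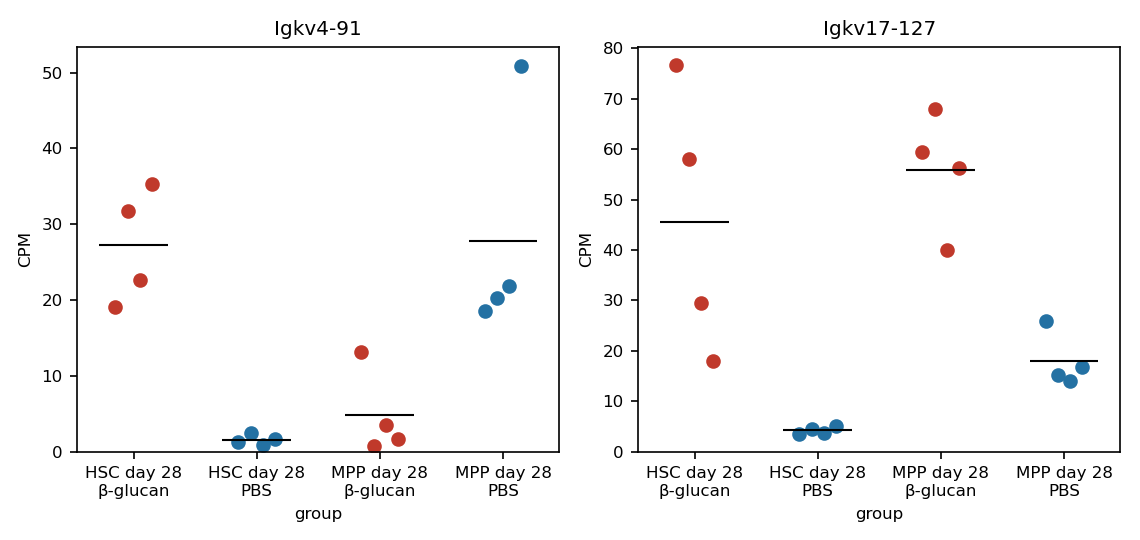
CPM of Igkv4-91 (left) and Igkv17-127 (right) in HSC and MPP at day 28; 1 point is 1 library and lines are group means (n = 4 each). Igkv4-91 is at 19.1 to 35.3 CPM in HSC after β-glucan and 0.896 to 2.45 CPM in HSC after PBS, and at 0.714 to 13.2 and 18.5 to 50.9 CPM in MPP.

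The median log2 fold change in MPP was -0.06 over the members tested, 82 of them above 0 and 93 below, and 0.00 over all genes. No constant region or J chain gene of 12 was called (median log2 -0.03). Of 16 mature B cell genes 9 fell and none rose (median -0.25), among them Cd79a (log2 -0.47). Of 14 pre-B genes 11 fell (median -0.60), among them Vpreb1 (-0.93). Of 16 plasma cell genes 3 fell and 2 rose (median -0.05), of 7 T cell receptor constant regions 3 fell (median -0.33), and no octamer factor gene was called (median -0.18).

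After 5-FU, 1 segment of 136 tested fell and none rose, among 7 genes called of 15705 (0.0446%, with 0.0382% higher and 0.00637% lower). Treatments did not overlap for 3 members in the higher and 7 in the lower direction, against 4.15 and 0.834% of all genes. Ighv1-49 had 0.222, 0.185, 0.303 and 0.140 CPM in β-glucan mice and 2.51, 5.13, 3.83 and 3.67 CPM in PBS mice. The groups were well apart (log2 -4.21 ± 0.31, edgeR adjusted p = 0.000283), and it was the only gene of all tested that was called lower. Its counts in β-glucan mice were 7, 5, 7 and 4, below the minimum count of 10 of the filter. It thus entered the test only through the PBS libraries, where it was high, which favours a call in this direction. In day 7 HSC Ighv1-49 had 0.221, 15.2 and 0.177 CPM after β-glucan and 0.677, 0.199, 0.494 and 0.0517 CPM after PBS, high in 1 library. Day 28 HSC had at most 0.92 CPM in each of the 8 libraries. In MPP it had 3.43, 0.342, 3.11 and 0.204 CPM after β-glucan and 2.85, 2, 4.70 and 15.1 CPM after PBS, and the groups overlapped. The 6 lists held no called gene after 5-FU by edgeR, where unadjusted p was below 0.05 for 4 of 12 constant region, 2 of 15 plasma cell, 1 of 16 mature B cell, 5 of 13 pre-B, 0 of 3 octamer factor and 3 of 7 T cell receptor genes. The share of all genes at an unadjusted p below 0.05 was not computed, so these counts are a description. Medians were 0.07 for constant regions, -0.03 for plasma cell, -0.03 for mature B cell, -0.16 for pre-B, -0.14 for octamer factor and 0.40 for T cell receptor genes.

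MPP had more segment RNA than HSC at day 28 in both treatments. In PBS mice 63 of 167 members tested were higher in MPP and none lower, where 21.7% of 16122 genes were called, 9.58% higher and 12.1% lower. The cell types did not overlap for 46 members, all higher in MPP, against 17.5% of all genes in that direction and 9.63% in the other. In β-glucan mice 64 of 165 were higher and 1 lower, where 35.6% of 15945 genes were called, 17.7% higher and 18% lower. Here 48 members did not overlap in the higher and 1 in the lower direction, against 24.3 and 10.3% of all genes. Of the members called higher, 53 of 63 in PBS mice and 53 of 64 in β-glucan mice had a mean below 5 CPM in HSC. Members were chosen by their highest library, and MPP libraries held the most segment RNA. Members near 0 in HSC could pass the filter on low counts through MPP alone. The numbers in each direction are therefore a description. The fits between cell types, and that of the difference of effects, did not use replicate numbers. Over all genes these numbers pair the MPP and HSC libraries of β-glucan mice, and a count with the number as a block is given below. Of the 63 and the 64 called higher, 29 were shared, 46 and 45.3% of each. Igkv6-17 had 11.2, 7.71, 18.9 and 17.1 CPM in MPP and 2.13, 2, 1.88 and 1.24 CPM in HSC of PBS mice (log2 2.82 ± 0.28, edgeR adjusted p = 0.000101). The smallest p in PBS mice belonged to Ighv1-82, with 9.01, 8.80, 9.67 and 9.78 CPM in MPP and 1.65, 1.84, 1.36 and 2.45 CPM in HSC (log2 2.28 ± 0.17, edgeR adjusted p = 2.82e-05). In both segments the cell types did not overlap, and MPP replicates were closer to each other for Ighv1-82 than for Igkv6-17.

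In β-glucan mice the smallest p belonged to Ighv10-1, with 8.64, 12.2, 16.2 and 10.6 CPM in MPP and 0.844, 1.03, 0.806 and 1.60 CPM in HSC (log2 3.37 ± 0.24, edgeR adjusted p = 1.03e-05). Ighv12-3 had 6.53, 1.89, 5.12 and 8.51 CPM in MPP and 0.0625, 0.112, 0.124 and 0.0313 CPM in HSC of these mice (log2 5.87 ± 0.53, edgeR adjusted p = 3.57e-05). Ighv5-16 had 26.5, 27.6, 23.8 and 20.5 CPM in MPP and 0.406, 0.363, 0.310 and 3.29 CPM in HSC (log2 4.41 ± 0.56, edgeR adjusted p = 0.000239). Each was higher in every MPP library. Iglv1 did not pass the test in either treatment (log2 0.62 ± 0.21 in PBS mice, edgeR adjusted p = 0.0559, and 0.79 ± 0.38 in β-glucan mice, edgeR adjusted p = 0.131).

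Constant regions rose too. In PBS mice 5 of 12 constant region and J chain genes were higher in MPP than in HSC (median log2 1.06), and in β-glucan mice 8 of 12 (median 0.93). Ighm rose by log2 1.28 and 1.48 and Igkc by 0.96 and 1.04. Jchain, the joining chain of IgM and IgA polymers, rose by 1.00 and 1.20. Plasma cell genes were higher in 6 and lower in 0 of 16 in PBS mice, and higher in 5 and lower in 3 in β-glucan mice. Mature B cell genes were higher in 5 and lower in 3 of 16, and higher in 3 and lower in 1. Pre-B genes were higher in 11 of 14, and higher in 7 and lower in 1, with Dntt, the nucleotide-adding transferase of V(D)J joining, rising by 2.33 and 2.72. Octamer factors were higher in 2 and 1 of 3, and T cell receptor constant regions were lower in 0 and 1 of 7.

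A heavy and a light segment can rise and fall together over libraries. Ighv11-2 and Igkv14-126 are known from mouse B-1 cells as a pair that forms antibodies to phosphatidylcholine, and they reached the highest levels of their classes. In MPP Ighv11-2 had 147, 47.6, 108 and 94.0 CPM after β-glucan and 78.6, 77.6, 77.3 and 101 CPM after PBS, and Igkv14-126 had 258, 91.0, 180 and 157 CPM after β-glucan and 136, 139, 148 and 156 CPM after PBS. The first β-glucan library was the highest for both and the second the lowest. In HSC after 5-FU, Igkv14-126 had 36.4, 28.4, 39.2 and 0.977 CPM in β-glucan mice and 0.913, 19.0, 85.3 and 4.99 CPM in PBS mice. Ighv11-2 had 21.7, 10.6, 15.8 and 0.908 CPM in β-glucan mice and 0.456, 10.3, 34.0 and 4.87 CPM in PBS mice, low in the same libraries. Neither differed between treatments past the threshold in any of the 4 comparisons.

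The pair was chosen after its values were seen. On log2(CPM + 1), Pearson's r was 0.859 in HSC at day 7 (Spearman's rho 0.857, n = 7, exact permutation p = 0.0159 and 0.0238), 0.853 in HSC at day 28 (rho 0.881, n = 8, exact permutation p = 0.0068 and 0.00724), 0.978 in MPP (rho 0.881, n = 8, exact permutation p = 0.000347 and 0.00724) and 0.985 after 5-FU (rho 0.976, n = 8, exact permutation p = 0.000124 and 0.000397). These are 4 of 16 relations computed, with Benjamini-Hochberg adjusted exact permutation p of 0.0254, 0.0153, 0.00139 and 0.00106 for r. The adjustment does not cover the choice of the pair, so these p-values are a description. Without the 2 libraries farthest from the median of Ighv11-2, r was 0.904, 0.921, 0.892 and 0.954. Over all 31 libraries, after the mean of each group was subtracted, r was 0.885. By this measure Igkv14-126 ranked first of 95 light chain segments in likeness to Ighv11-2, ahead of Igkv4-59 with 0.532 and a median of 0.0597. The first PBS library of day 7 stood off the common line, with 17.4 CPM of Ighv11-2 and 4.70 CPM of Igkv14-126, and so did the third PBS library of HSC at day 28, with 0.679 and 16 CPM.

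**Figure D5:**
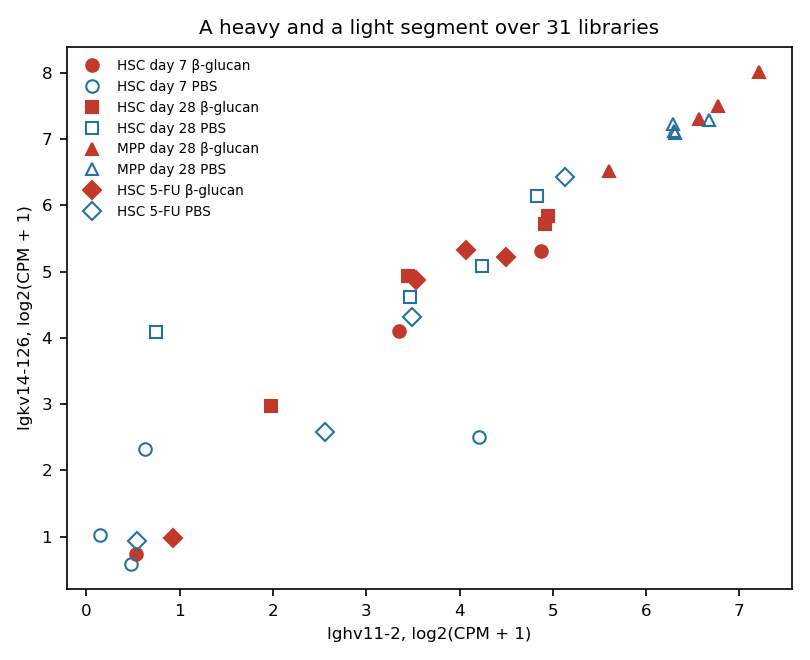
Ighv11-2 (x) against Igkv14-126 (y), log2(CPM + 1), in 31 libraries; filled symbols are β-glucan and open symbols PBS, and shapes give the set. Most points lie near a common line, with r between 0.853 and 0.985 within sets, and 1 PBS library each of HSC at day 7 and at day 28 lies away from it.

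Ighv12-3 and Igkv4-91, which form the other well-known mouse antibody to phosphatidylcholine, were set against each other in the same way. Their r was 0.206 in HSC at day 7 (rho 0.464, n = 7, exact permutation p = 0.58 and 0.302), -0.299 in MPP (rho -0.286, n = 8, exact permutation p = 0.465 and 0.501) and 0.335 after 5-FU (rho -0.012, n = 8, exact permutation p = 0.449 and 0.99). Adjusted exact permutation p for r were 0.58, 0.496 and 0.496, and r without the 2 farthest libraries was 0.776, 0.0819 and -0.0107. For HSC at day 28 no r is given, because the treatments form separate clusters for Igkv4-91, each of 4 libraries. Over both treatments together the relation was negative there, and it cannot be told apart from the difference between treatments. The relation within treatments was not tested. Ighv12-3 was at 0.0313 to 0.38 CPM in these libraries. The r of this pair in MPP spans a difference between treatments too, since these did not overlap for Igkv4-91. The lambda segment Iglv2 and the constant region Iglc2 had r of 0.890 in day 28 HSC, 0.773 in MPP and 0.979 after 5-FU (rho 0.833, 0.976 and 0.952, n = 8, adjusted exact permutation p = 0.0117, 0.0383 and 0.00106 for r). Without the 2 farthest libraries these were 0.561, 0.846 and 0.981. No r is given for day 7, where the treatments form separate clusters for both genes. Iglv1 and Iglc1 had r of 0.779, 0.629, 0.966 and 0.887 (rho 0.786, 0.619, 0.929 and 0.833, n = 7 or 8, adjusted exact permutation p = 0.0601, 0.112, 0.00106 and 0.0153 for r), which were -0.00806, 0.450, 0.942 and 0.841 without the 2 farthest, so that the first of these rests on them.

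The near-copies Ighv11-1 and Ighv11-2 were in a different proportion in the day 7 table. In libraries where Ighv11-2 reached 2 CPM, the count level of Ighv11-1 over that of Ighv11-2 was 0.00913 to 0.0192 (median 0.0176, 3 libraries) at day 7. It was 0.415 to 0.537 (median 0.452, 15 libraries) in the day 28 table and 0.428 to 0.590 (median 0.483, 6 libraries) in the 5-FU table. Ranges did not overlap between day 7 and the other tables, and both treatments lay within each range. Levels of such copies were therefore set against each other only within a table.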

How the data were processed

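The deposited values are whole-number gene counts, in 3 tables with 7, 16 and 8 columns. According to the submitters' processing notes these come from bcl2fastq 1.8.4 and featureCounts on mm10. An aligner is not stated in the notes used here. The SMARTer amplification named in the labels' protocols does not mark strand, so overlapping and antisense genes cannot be separated in the counts. Reads from stretches that near-identical segments share cannot be assigned to 1 of them. The column names give neither the day nor 5-FU: the 7-column table was taken as day 7, the only set with 3 β-glucan libraries, the one with MPP as day 28 and the remaining one as 5-FU, and initials P and G as PBS and β-glucan. For 1 library titled MPP of a PBS mouse but tagged as HSC, the title was used.

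Symbols and sequences came from GENCODE M21. Levels are CPM of the deposited counts. At 2 CPM a library held 38.7 to 79.0 counts, with a counting error of 16.1 to 11.3%, and 3 counts corresponded to 0.076 to 0.155 CPM; these cover counting error only. Fits used R 4.3.3, edgeR 4.0.16 (filterByExpr with a minimum count of 10, TMM, quasi-likelihood test), with limma 3.58.1 voom and DESeq2 1.42.0 as alternatives. Scripts were tested on simulated data. The SE of a fold change is its size over the square root of F. Spread was computed on log2(CPM + 1) of TMM-scaled totals.

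Members, lists and tests were chosen with earlier results of these data known. Named segments are those of smallest adjusted p (up to 12 a comparison), of highest library level (5 a class), of largest share in 1 library (5) and at the level of 2 CPM (3 on each side); the pairs of segments, Ighv7-1, Igkv8-19, Iglv2 at day 7, Igkv16-104 and the Igkv4 segments of MPP were added after values were seen. No library was a duplicate of another (chi-square per gene 6.75 to 50.3 over 45 replicate pairs).

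Numbers in titles are shared between groups. Over 10149 genes of mean CPM of at least 5, deviations from group means correlated between same-numbered MPP and HSC libraries of β-glucan mice in all 4 pairs (r 0.206 to 0.334). Every MPP library was closest to its own number, so numbers pair these samples over all genes. Over the 182 members r was -0.0358 to 0.0544 in the same pairs, and 2 of the 4 MPP libraries were closest to their own number. In the other comparisons at least 1 pair was below 0.1 over all genes.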

Additional observations from a re-analysis of the deposited data

Results flagged for a closer look

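Single libraries stood apart from their replicates in 12 of 112 sets examined, each being 1 segment in 1 group of 4 libraries with a gap beyond Dixon's 95% value. The choice of segments by their highest library favours such gaps, and the same segments recur over groups. The count is therefore a description and is not set against a chance rate. Libraries above their replicates by this measure were Ighv11-2 at 17.4 CPM in the first, Igkv6-23 at 37.5 CPM in the third, and Ighv1-64 and Ighv1-82 at 58.5 and 51.4 CPM in the fourth PBS library of HSC at day 7. In HSC at day 28 they were Ighv1-64 at 13.7 CPM and Igkv10-96 at 72.4 CPM in the fourth PBS library, and Igkv8-30 at 63.2 CPM in the second β-glucan library. In MPP the fourth PBS library had 101 CPM of Ighv11-2, a small gap above replicates that were close to each other. After 5-FU the first β-glucan library had 5.75 CPM of Iglv3, the fourth β-glucan library 11.7 CPM of Ighv4-1, the second PBS library 30.5 CPM of Iglv2 and the fourth PBS library 7.87 CPM of Ighv1-82. For Iglv3 the gap was small in CPM as well, and its other replicates were close to each other.

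Igkv4-91 is listed for the difference of its β-glucan effects between MPP and HSC at day 28, -6.64 on the log2 scale, tested as a contrast of the 4 groups.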

How the results depend on the processing

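Of 796 values of 52 single-segment effects under alternatives, 739 kept direction and side of the threshold, 57 kept direction only and 0 reversed. The counts of called segments were 32, 2, 16 and 1 for β-glucan against PBS in HSC at day 7, HSC at day 28, MPP and after 5-FU, 63 and 65 for MPP against HSC in PBS and β-glucan mice, and 1 for the difference of effects. Without a filter on low counts the first 5 were 68, 14, 56, 22 and 97. At a level of 5 CPM they were 4 at day 7, 0 after 5-FU, 19 in PBS and 32 in β-glucan mice, where fewer segments were tested (15 at day 7, 29 after 5-FU). At 5 CPM after 5-FU edgeR called 16 genes, none of them a segment. DESeq2 called 8 in HSC at day 28 and 11 after 5-FU, and voom 5 and 2. A robust dispersion gave 1 in HSC at day 28, 6 in MPP, 41 and 43 between cell types, and 0 for the difference of effects. The cause of these shifts was not tested. DESeq2 size factors and scaling without immunoglobulin genes moved no count by more than 1.5 times.

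Without 1 library at a time the counts were 10 to 36, 1 to 4, 6 to 26, 1 to 3, 48 to 88, 55 to 72 and 1 to 1. In HSC at day 28 the count was 4 without the second PBS library and 1 without the third or the fourth. After 5-FU it was 2 without the second, the third or the fourth β-glucan library and 3 without the third PBS library. With the replicate number as a block, 33 segments were called in MPP and 3 after 5-FU, where the numbers do not pair the samples. The block gave 94 for MPP against HSC in β-glucan mice, where the numbers pair the samples over all genes. The ratio of difference to spread stayed within 1.5 times under every alternative tried. Depth limits segments below 2 CPM.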
